A study of Homo sapiens with 6 samples.

Results

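The DNA replication and S phase genes are 50 genes, of 39020 with a count in any of the 6 libraries, taken by gene symbol. They were chosen with earlier results of these data known. They hold the origin recognition complex and its helpers, the MCM helicase, the replicative polymerases, the sliding clamp and its loader, the Okazaki fragment enzymes, the chromatin assembly factor, E2F factors, E-type cyclins, and enzymes of nucleotide synthesis. All 50 were listed in RNA-seq and 36 in at least 1 iCLIP library. The cells were U2OS, a human osteosarcoma line. iCLIP sequences the RNA that ultraviolet light has crosslinked to a chosen protein, here FLAG-tagged TIRR, an RNA-binding partner of the repair protein 53BP1. These cells carry the genotype TIRR_FLAG, a stably transfected tagged TIRR. There were 2 libraries from cells that received X-rays (5 Gy) and then recovered for 4 h, and 2 from untreated cells. RNA-seq was of WT cells, with 1 library after the same dose and recovery and 1 untreated. The series' design text names gamma radiation for RNA-seq, and empty-vector cells were not analysed here, so no background was subtracted from iCLIP. The assays differ in genotype as well as in protocol, and these cannot be told apart.

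The iCLIP libraries held 400723 and 664777 gene counts after irradiation and 781997 and 799709 in untreated cells. The RNA-seq libraries held 13023903 gene counts in irradiated and 13015406 in untreated cells. Replicates varied beyond counting error, with a chi-square over degrees of freedom of 2.12 for the irradiated and 1.51 for the untreated pair. Nothing says that replicates came from separate cultures, so p-values measure only how far these libraries spread, possibly for technical reasons. The line's bone origin was checked in RNA-seq: RUNX2 (692 counts irradiated, 855 untreated), COL1A1 and VIM were present, while COL1A2 (2 and 6 counts) and BGLAP (4 and 3) were nearly absent and SP7 was not listed. EPCAM, with 57 and 55 counts, was the highest of 7 epithelial and blood cell markers.

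Replication is prepared in G1, when the origin recognition complex, CDC6 and CDT1 load the MCM ring onto DNA. Cyclin E and its kinase, together with E2F transcription factors, then open S phase: CDC45 and GINS turn the ring into an active helicase, the polymerase alpha-primase complex starts each strand, and polymerases delta and epsilon extend it on the PCNA clamp. FEN1 and LIG1 join the Okazaki fragments of the lagging strand, and RPA coats the single strand. Most of these genes are transcribed in late G1 and S phase, classically through E2F sites in their promoters. DNA damage stops the cycle through p53 and the checkpoint kinases, and several of the proteins named here, PCNA above all, also serve in DNA repair.

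Many member promoters held an E2F word. RefSeq promoters (GRCh38.p14, from 250 bases before to 50 after each start) were matched for 43 of the 50 members. An E2F word (TTTGGCGC, TTTCCCGC, TTTGCCGC or TTTCGCGC, on either strand; overlapping matches count) was in the promoter of 21 of these 43 (48.8%), against 3.99% of 27305 genes. CCAAT, which is bound by NF-Y, was in 58.1% against 39.7%. The CHR words TTTGAA and TTCGAA, which late cell cycle promoters often carry, were in 4.65% against 19.5%. A match is a description of these windows and not a shown site. The promoters below are those of the member with the highest RNA-seq ratio (PCNA, chr20:5126573-5126872), the lowest (E2F2, chr1:23531184-23531483), the member called in iCLIP (LIG1, chr19:48170295-48170594) and an MCM gene with overlapping E2F words (MCM6, chr2:135876394-135876693). All 4 lie on the minus strand and are written 5′ to 3′ along the gene, with E2F words in capitals.
PCNA: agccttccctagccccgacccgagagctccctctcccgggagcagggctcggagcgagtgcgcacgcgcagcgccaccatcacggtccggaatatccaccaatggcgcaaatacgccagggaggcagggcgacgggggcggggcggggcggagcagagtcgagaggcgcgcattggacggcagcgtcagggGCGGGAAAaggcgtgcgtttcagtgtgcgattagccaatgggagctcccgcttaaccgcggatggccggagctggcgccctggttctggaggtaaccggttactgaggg
E2F2: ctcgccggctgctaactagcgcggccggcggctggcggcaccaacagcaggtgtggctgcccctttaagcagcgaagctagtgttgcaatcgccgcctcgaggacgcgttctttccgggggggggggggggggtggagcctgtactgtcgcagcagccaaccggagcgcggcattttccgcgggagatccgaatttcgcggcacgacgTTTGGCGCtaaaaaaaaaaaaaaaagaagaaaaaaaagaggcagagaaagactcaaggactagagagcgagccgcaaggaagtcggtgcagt
LIG1: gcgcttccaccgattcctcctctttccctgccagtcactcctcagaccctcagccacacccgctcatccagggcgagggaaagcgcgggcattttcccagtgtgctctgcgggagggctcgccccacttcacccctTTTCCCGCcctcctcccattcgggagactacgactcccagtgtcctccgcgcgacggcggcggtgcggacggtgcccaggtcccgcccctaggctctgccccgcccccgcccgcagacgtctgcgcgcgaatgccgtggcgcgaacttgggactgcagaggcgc
MCM6: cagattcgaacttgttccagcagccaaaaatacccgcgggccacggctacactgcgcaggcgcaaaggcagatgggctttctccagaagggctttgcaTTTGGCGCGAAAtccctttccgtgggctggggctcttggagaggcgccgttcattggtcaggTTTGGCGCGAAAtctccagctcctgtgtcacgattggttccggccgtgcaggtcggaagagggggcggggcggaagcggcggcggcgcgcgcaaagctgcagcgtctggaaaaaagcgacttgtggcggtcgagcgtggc
The capitals of PCNA are the reverse complement of TTTCCCGC, those of E2F2 are TTTGGCGC, and those of LIG1 are TTTCCCGC. MCM6 holds TTTGGCGC at both places, each overlapping TTTCGCGC of the other strand. PCNA has a second listed start upstream of which no E2F word was found. Among the 43 members with a matched promoter, an E2F word was in 3 of the 6 members whose ratio was above 1 beyond counting error, 8 of the 15 below and 10 of the 22 at neither side.

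In RNA-seq, the replication genes as a set kept nearly the same share of the transcriptome after irradiation. They took 0.547% of the gene counts in irradiated cells (exact Clopper-Pearson 95% interval 0.543 to 0.551) and 0.539% in untreated cells (0.535 to 0.543), intervals that cover counting error only. Scaled by TMM the ratio was 1.01 with a 95% counting interval of 0.995 to 1.02. With 1 library a condition there is no replicate check and no test, and in bulk samples fewer cells in a phase and less RNA per cell cannot be told apart. No member was 2-fold apart with an interval beyond 1.5-fold, a rule that 1.49% of the 12977 genes with at least 100 counts met. Only PCNA was at least 25% higher and only E2F2 at least 20% lower, which is the same fold, with an interval on that side of 1, among 49 members with 100 counts, against 9.44% and 11.0% of all such genes. Of these 49, 47 lay between these bounds, as did 78.4% of all genes with 100 counts. Smaller shifts went both ways: the 95% counting interval lay above 1 for 8 members and below 1 for 15, against 20.4% and 22.0% of all genes. Scaled by library totals these counts were 9 and 13.

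**Figure D1:**
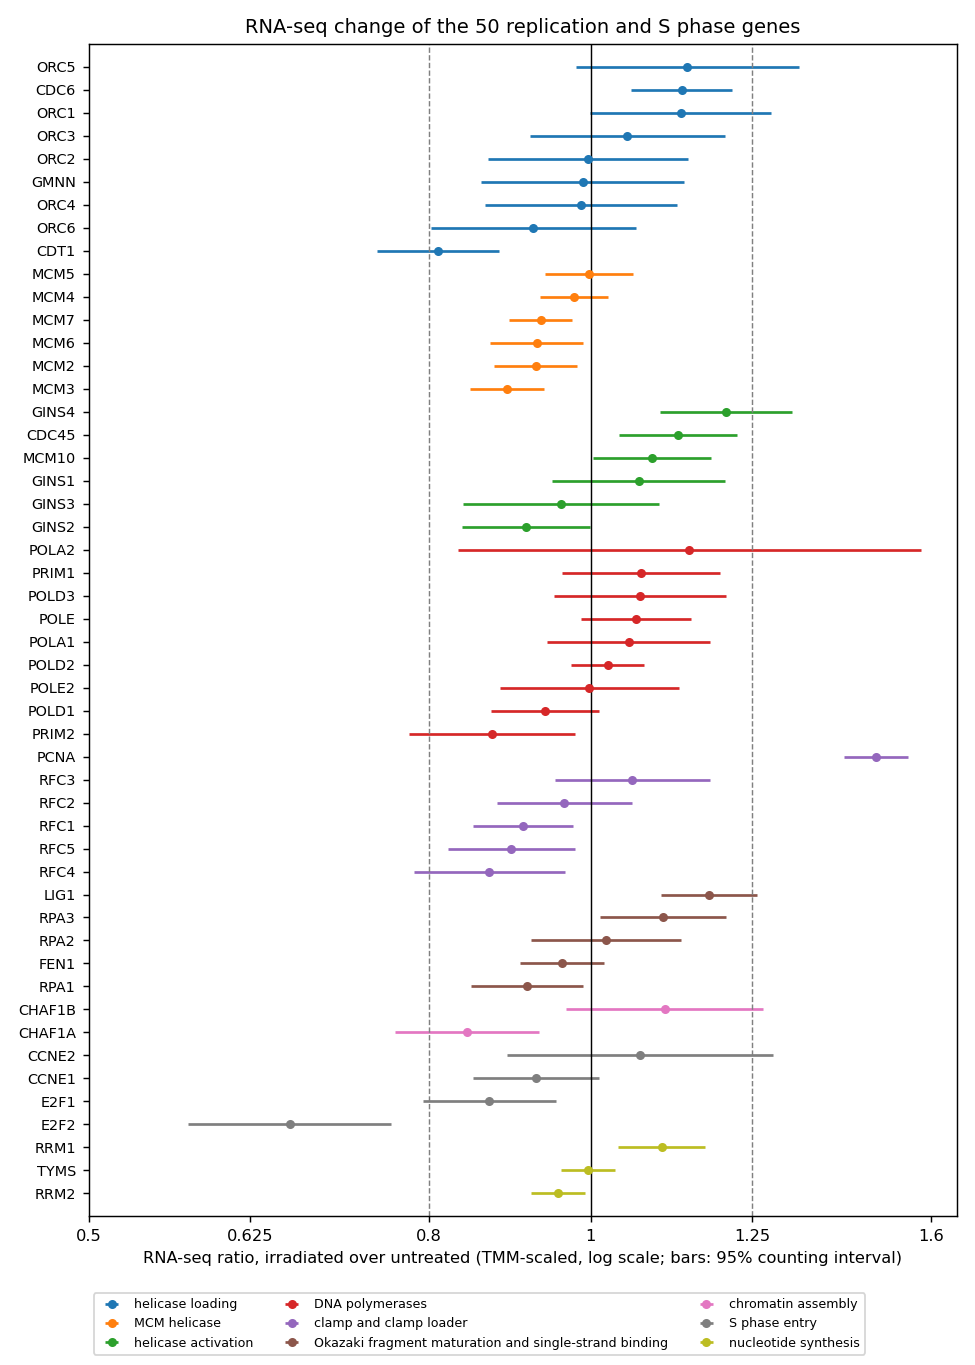
RNA-seq ratio of irradiated over untreated cells (TMM-scaled, log axis) for each of the 50 members, coloured by role, with 95% counting intervals as bars, a solid line at 1 and dashed lines at 25% higher and 20% lower. PCNA at 1.48 and E2F2 at 0.661 stand outside the dashed lines, all 6 MCM helicase genes lie at or below 1, and the rest scatter around 1.

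PCNA and E2F2 marked the 2 ends of the RNA-seq range. PCNA (ENSG00000132646, chromosome 20, 5114953 to 5126622), the clamp that tethers polymerases to DNA and a known p53 target, had 4865 RNA-seq counts in irradiated cells against 3245 in untreated cells, a ratio of 1.48 (95% counting interval 1.42 to 1.55). All 50 members summed to 71260 counts in irradiated and 70090 in untreated cells. Without PCNA the other members together thus had slightly fewer counts in irradiated cells. E2F2 (ENSG00000007968, chromosome 1, 23505212 to 23531233), an activator of S phase transcription, had 338 counts in irradiated cells against 506 in untreated cells, a ratio of 0.661 (0.574 to 0.760). Both genes overlap another annotated gene in RefSeq, PCNA its antisense PCNA-AS1 and LOC124900464, and E2F2 LOC101928163. The sources used here do not give the strand setting, so reads of such pairs cannot be told apart. PCNA-AS1 was not listed in any library.

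In the TIRR iCLIP libraries, 34 members were listed in all 4 libraries and 2 in 3 of them. FEN1 was absent from irradiated replicate 2 and CCNE2 from irradiated replicate 1. The 14 members with no line in any iCLIP library, by symbol or by gene ID, were MCM2, MCM6, ORC2, CDC6, CDT1, GINS1, GINS2, POLA2, RFC4, RPA1, CHAF1A, E2F1, E2F2 and RRM1. They were not analysed in iCLIP and are not treated as 0. Several were well expressed: MCM2 had 2292 RNA-seq counts in irradiated and 2445 in untreated cells, and RRM1 had 2275 and 2040. Missing lines were common among expressed genes at large: 22.2% of the 12977 genes with at least 100 RNA-seq counts had none, against 13 of 49 members (26.5%). Among genes with at least 1000 RNA-seq counts it was 20.5% of all and 7 of 26 members (26.9%). Of the 36 listed, 29 had enough counts to be tested. PCNA, FEN1, RPA3, CCNE2, PRIM1, GMNN and GINS3 were too sparse.

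Of the 29 replication RNAs tested in iCLIP, 1 passed the test for a difference after irradiation. In the edgeR quasi-likelihood test over 9230 genes (Benjamini-Hochberg adjusted p under 0.05), LIG1 was the 1 tested member called higher and none was called lower, where 3.5% of all genes were called (2.43% higher and 1.07% lower). At an unadjusted p under 0.05, 3 tested members were higher and 1 lower, and 14.5% of all genes passed in either direction. DESeq2 called no member, though it gave no adjusted p for some of them, such as ORC5, MCM7 and RPA2. The 29 tested members had a median log2 fold change of -0.01, with 14 positive and 15 negative values, and the median of all genes was 0.00. Both irradiated libraries exceeded both untreated ones in CPM (counts per 1000000 gene counts) for 6 tested members and below for 6, against 17.6% and 27.4% of all genes. The 36 listed members summed to 4427 and 4034 CPM in irradiated libraries, against 4064 and 4158 CPM in untreated libraries, a ratio of means of 1.03 (1.08 after TMM scaling). In CPM the groups overlapped, and after TMM scaling both irradiated libraries exceeded both untreated ones.

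**Figure D2:**
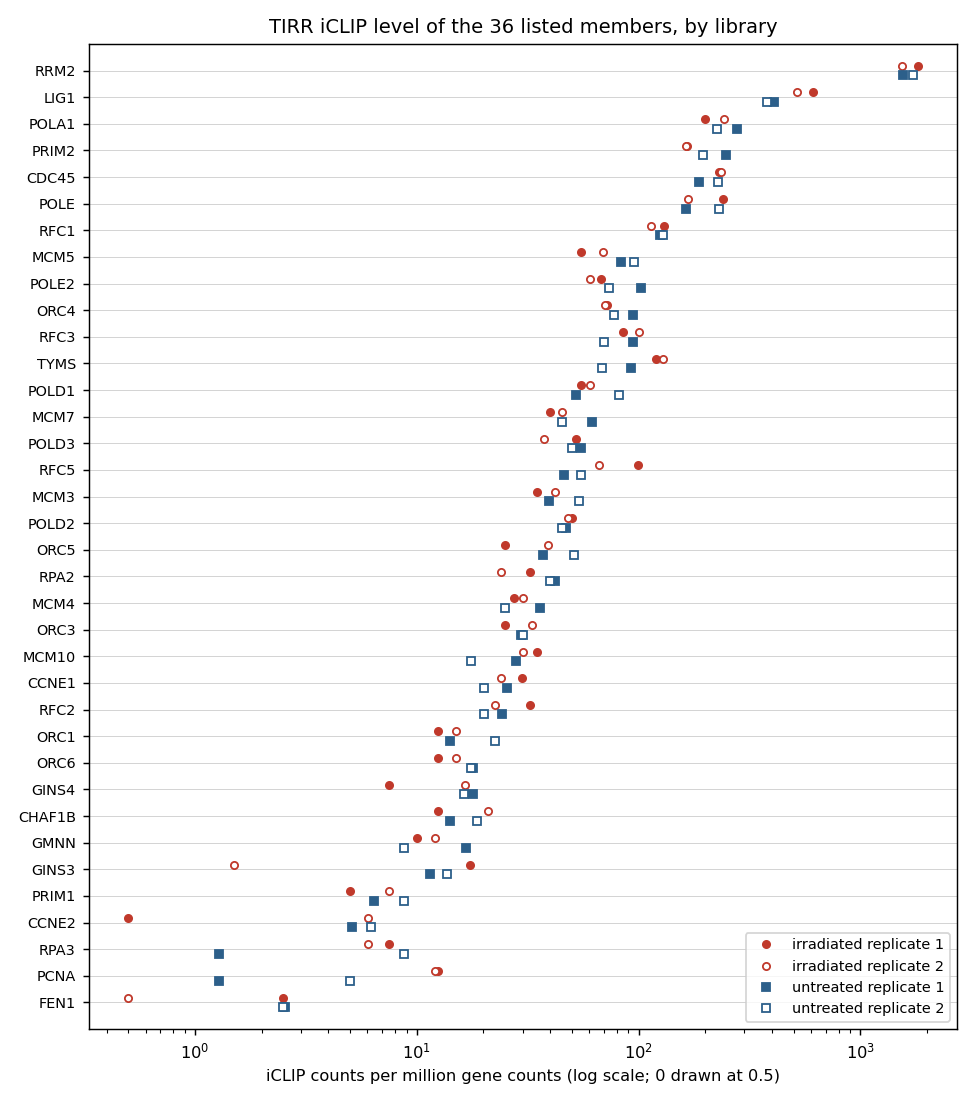
iCLIP level in counts per 1000000 gene counts (log axis, 0 drawn at 0.5) of the 36 listed members in each library, ordered by their mean in untreated cells. RRM2 stands far to the right in all 4 libraries, both LIG1 points of irradiated cells lie right of both points of untreated cells, and most other members overlap or differ little between the groups.

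Among the helicase loading genes, which encode the origin recognition complex and the factors that place MCM on it, RNA-seq levels were close to even. CDC6, the loader ATPase, had 1753 counts in irradiated against 1529 in untreated cells, a ratio of 1.13 (95% counting interval 1.06 to 1.22). CDT1, which brings MCM to the origin and is destroyed once replication starts, had 1019 against 1244 counts, a ratio of 0.810 (0.745 to 0.881). These neighbours in one step thus stood on opposite sides of 1, and the other 7 had intervals that spanned 1, ORC1 doing so only under TMM scaling (above 1 by library totals). ORC5, an origin recognition subunit, was highest with a ratio of 1.14 on 364 irradiated and 315 untreated counts, but its interval was 0.980 to 1.33. In iCLIP the 6 listed genes summed to 157 and 185 CPM in irradiated libraries, against 209.7 and 208 CPM in untreated libraries, groups that did not overlap (ratio of means 0.820, or 0.859 with TMM scaling). Such separation was common: in CPM, 27.4% of all tested genes were lower and 17.6% higher in both irradiated libraries. The separations of single genes given below stand beside the same shares, and no such share was computed for summed groups. No gene of the group was called. ORC4, the one with most counts, had 72.4 and 70.7 CPM in irradiated libraries, against 94.6 and 77.5 CPM in untreated libraries, a log2 change of -0.20 ± 0.22 (SE, edgeR adjusted p = 0.754). ORC4 overlaps ACVR2A and MBD5, so part of its counts may belong to them. ORC5 had 25.0 and 39.1 CPM in irradiated libraries, against 37.1 and 51.3 CPM in untreated libraries, which overlap (log2 fold change -0.33 ± 0.32, SE, edgeR adjusted p = 0.707).

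The MCM helicase genes, whose products form the ring that unwinds DNA, were slightly lower in RNA-seq as a group. Their summed level was 1275 CPM in irradiated against 1340.5 CPM in untreated cells, a TMM-scaled ratio of 0.941 (95% counting interval 0.921 to 0.961). The interval lay below 1 for MCM2, MCM3, MCM6 and MCM7, with ratios of 0.927, 0.891, 0.928 and 0.933, and spanned 1 for MCM4 (0.977) and MCM5 (0.997, or 1.01 by library totals). None of them was 20% lower. In iCLIP the 4 listed MCM genes summed to 157 and 187 CPM in irradiated libraries, against 219.9 and 219 CPM in untreated libraries, a ratio of means of 0.783 (0.821 with TMM scaling) without overlap. None was called. MCM5 had 54.9 and 69.2 CPM in irradiated libraries, against 83.1 and 95.03 CPM in untreated libraries, and its log2 fold change of -0.42 ± 0.23 (SE) had an edgeR adjusted p of 0.416. MCM7, whose introns host the miRNA genes MIR25, MIR93 and MIR106B, had 39.9 and 45.1 CPM in irradiated libraries, against 61.4 and 45.02 CPM in untreated libraries (log2 fold change -0.24 ± 0.28, SE, edgeR adjusted p = 0.774). Its groups overlapped through untreated replicate 2.

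Of the 6 genes that turn the loaded ring into a moving helicase, 3 had RNA-seq intervals above 1 and 1 below, against 20.4% and 22.0% of all genes. GINS4, a GINS subunit, had 1045 counts in irradiated against 857 in untreated cells, a ratio of 1.21 (95% counting interval 1.10 to 1.32), the second highest of the members with 100 counts. CDC45, which completes the helicase, had 1261 against 1105 counts, a ratio of 1.13 (1.04 to 1.22), and MCM10, an activation factor, had 1236 against 1123, a ratio of 1.09 (1.003 to 1.18). GINS2 was lower at 0.915 (0.837 to 0.999), though its interval spanned 1 by library totals. In iCLIP the 4 listed genes summed to 289 and 284 CPM in irradiated libraries, against 246 and 275 CPM in untreated libraries, without overlap. The ratio of means was 1.10 (1.16 with TMM scaling). CDC45 had 229.6 and 236 CPM in irradiated libraries, against 188 and 228 CPM in untreated libraries, a log2 change of 0.23 ± 0.16 (SE, edgeR adjusted p = 0.550). MCM10 had 34.9 and 30.1 CPM in irradiated libraries, against 28.1 and 17.5 CPM in untreated libraries (0.55 ± 0.37, SE, edgeR adjusted p = 0.550). For both genes the irradiated libraries were above the untreated ones, and neither passed the test. GINS4 had 3 and 11 counts in irradiated libraries, against 14 and 13 in untreated libraries, a log2 change of -0.32 ± 0.50 (SE, edgeR adjusted p = 0.846). GINS3 had 7 and 1 counts in irradiated libraries, against 9 and 11 in untreated libraries, and was not tested.

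The replicative polymerase and primase genes barely moved in RNA-seq. Of the 9, none had an interval above 1 and PRIM2 alone had one below, with 572 counts in irradiated against 648 in untreated cells (ratio 0.873, 95% counting interval 0.779 to 0.978). POLA2 was the only member under 100 counts, with 88 in irradiated and 76 in untreated cells. The iCLIP libraries held much of this group: its 8 listed genes summed to 833 and 788 CPM in irradiated libraries, against 953 and 912 CPM in untreated libraries, a ratio of means of 0.870 (0.912 with TMM scaling) without overlap. PRIM2, the large primase subunit, had 164.7 and 164 CPM in irradiated libraries, against 248 and 195 CPM in untreated libraries. Its log2 fold change of -0.36 ± 0.17 (SE) had an unadjusted p of 0.0458 and an edgeR adjusted p of 0.328. PRIM2 was thus lower in both assays, with the iCLIP difference short of the threshold, and it overlaps RAB23, LINC03001 and MIR548U. POLA1, the catalytic subunit of polymerase alpha, had 199.6 and 244 CPM in irradiated libraries, against 277 and 226 CPM in untreated libraries, overlapping groups with a log2 change of -0.10 ± 0.16 (SE, edgeR adjusted p = 0.857).

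In the clamp and clamp loader group, PCNA and the RFC subunits that open and close it did not move together. In RNA-seq, RFC1, RFC4 and RFC5 were lower, with ratios of 0.911 (95% counting interval 0.851 to 0.976), 0.869 (0.783 to 0.965) and 0.896 (0.821 to 0.978), while RFC2 and RFC3 spanned 1. RFC4 had 684 counts in irradiated and 778 in untreated cells. In iCLIP the 5 listed genes summed to 359 and 316 CPM in irradiated libraries, against 292 and 279 CPM in untreated libraries, without overlap. The ratio of means was 1.18 (1.24 with TMM scaling). PCNA was among the sparsest members in iCLIP, with 5 and 8 counts in irradiated libraries, against 1 and 4 in untreated libraries. The ratio of its summed, TMM-scaled counts was 4.04 with a 95% counting interval of 1.35 to 14.5, which leaves out the spread between libraries. RFC5 had 99.8 and 66.2 CPM in irradiated libraries, against 46.04 and 55.02 CPM in untreated libraries, a log2 change of 0.73 ± 0.26 (SE, edgeR adjusted p = 0.165). Both irradiated libraries were above both untreated ones, and RFC5 passed the threshold only without irradiated replicate 2 (1.06, edgeR adjusted p = 0.0199). RFC5 overlaps WSB2, which had 23 and 54 iCLIP counts in irradiated libraries, against 73 and 39 in untreated libraries. RFC1, the large subunit, had 129.8 and 114 CPM in irradiated libraries, against 125 and 129 CPM in untreated libraries (log2 fold change -0.01 ± 0.19, SE, edgeR adjusted p = 0.994). RFC3 had 84.8 and 101 CPM in irradiated libraries, against 94.6 and 70.0 CPM in untreated libraries, which overlap (0.26 ± 0.22, SE, edgeR adjusted p = 0.661).

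LIG1, the ligase that seals Okazaki fragments and also acts in excision repair, was the 1 of 29 tested members called in iCLIP. Of all tested genes 3.5% were called. LIG1 (ENSG00000105486, chromosome 19, 48115445 to 48170344) had 244 and 345 iCLIP counts in irradiated libraries, against 320 and 304 in untreated libraries. Relative to depth this was 609 and 519 CPM in irradiated libraries, against 409 and 380.1 CPM in untreated libraries, means of 564 ± 63.6 and 395 ± 20.6 CPM (SD, n = 2 each). The log2 fold change was 0.58 ± 0.14 (SE), a 1.49-fold rise with an edgeR adjusted p of 0.0241, and both irradiated libraries were above both untreated ones. In RNA-seq LIG1 was also higher, with 1973 counts in irradiated against 1657 in untreated cells, a ratio of 1.18 (95% counting interval 1.10 to 1.26). The iCLIP call was lost without untreated replicate 1 (edgeR adjusted p = 0.154) or untreated replicate 2 (0.286), each of which leaves 1 untreated library. It was also lost in DESeq2 (adjusted p = 0.153) and, in edgeR with a replicate block, had an adjusted p of 0.0906. Scaled by library totals, the edgeR adjusted p was 0.0498, close to the threshold. The log2 fold change stayed between 0.45 and 0.70 when single libraries were left out. LIG1 overlaps LIG1-AS1, which was not listed in any library.

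Of the other 4 genes of lagging strand processing, RPA2 alone had enough iCLIP counts to be tested. RPA2, the middle subunit of the single-strand binding complex, had 32.4 and 24.1 iCLIP CPM in irradiated libraries, against 42.2 and 40.0 CPM in untreated libraries, a log2 change of -0.52 ± 0.33 (SE, edgeR adjusted p = 0.514). Without LIG1 the 3 listed genes summed to 42.4 and 30.1 CPM in irradiated libraries, against 46.04 and 51.3 CPM in untreated libraries, while with LIG1 the ratio of means was 1.35. FEN1, the flap nuclease, had 1 and 0 iCLIP counts in irradiated libraries, against 2 and 2 in untreated libraries, a ratio of summed, TMM-scaled counts of 0.388 (95% counting interval 0.00789 to 3.92). RPA3, the small subunit, had 3 and 4 counts in irradiated libraries, against 1 and 7 in untreated libraries. In RNA-seq FEN1 was even, with 2271 counts in irradiated and 2337 in untreated cells (ratio 0.961, 0.907 to 1.02). RPA3 was slightly higher, with 1103 and 987 counts (1.10, 1.01 to 1.21), and RPA1 slightly lower at 0.916 (0.848 to 0.989).

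The chromatin assembly factor and the S phase entry genes were sparse in iCLIP. CHAF1A, the large subunit of the factor that deposits histones behind the fork, had 740 RNA-seq counts in irradiated against 868 in untreated cells, a ratio of 0.843 (95% counting interval 0.763 to 0.931). CHAF1B, its partner, had 458 and 409 counts (1.11, 0.967 to 1.27), and in iCLIP it had 12.5 and 21.1 CPM in irradiated libraries, against 14.1 and 18.8 CPM in untreated libraries, overlapping groups (log2 fold change 0.17 ± 0.46, SE, edgeR adjusted p = 0.919). E2F1, the best known activator E2F, had 875 RNA-seq counts in irradiated against 995 in untreated cells, a ratio of 0.870 (0.793 to 0.953). It was lower like E2F2, and less far. The cyclin E genes, whose products drive the G1 to S transition, had intervals that spanned 1. CCNE1 had 998 counts in irradiated and 1064 in untreated cells (0.928, 0.850 to 1.01), and CCNE2 had 249 and 230 (1.07, 0.891 to 1.29). In iCLIP, CCNE1 had 29.9 and 24.1 CPM in irradiated libraries, against 25.6 and 20.01 CPM in untreated libraries (0.28 ± 0.38, SE, edgeR adjusted p = 0.815). CCNE2 had 0 and 4 iCLIP counts in irradiated libraries, against 4 and 5 in untreated libraries.

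The nucleotide synthesis genes held the member with the highest iCLIP level, RRM2, and differed in their changes. RRM2 (ENSG00000171848, chromosome 2, 10122568 to 10211010), the regulated small subunit of ribonucleotide reductase, had 1817 and 1545 iCLIP CPM in irradiated libraries, against 1552 and 1721 CPM in untreated libraries. These overlap, and the log2 fold change was 0.10 ± 0.12 (SE, edgeR adjusted p = 0.772). RRM2 overlaps LOC105373424, LOC124906144 and MIR4261. It held 39.6% of the members' iCLIP counts. Its RNA-seq counts were 5531 in irradiated and 5722 in untreated cells, a ratio of 0.956 (95% counting interval 0.921 to 0.992) whose interval reached 1 when scaled by library totals. TYMS, thymidylate synthase (ENSG00000176890, chromosome 18, 657653 to 673578), had 119.8 and 129 iCLIP CPM in irradiated libraries, against 92.1 and 68.8 CPM in untreated libraries, a log2 change of 0.71 ± 0.21 (SE). Both irradiated libraries were above both untreated ones, but the edgeR adjusted p was 0.0699, and it passed only without irradiated replicate 1 (0.75, edgeR adjusted p = 0.0409). In RNA-seq TYMS was even, with 5772 counts in irradiated and 5728 in untreated cells (ratio 0.996, 0.961 to 1.03). TYMS overlaps ENOSF1, which had 17 and 23 iCLIP counts in irradiated libraries, against 34 and 39 in untreated libraries, and TYMSOS, which had at most 4 in any library. RRM1, the large reductase subunit, had a ratio of 1.10 in RNA-seq (1.04 to 1.17).

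The changes in the 2 assays were nearly uncorrelated across the 29 tested members, with a Pearson r of 0.05 and a Spearman rho of 0.03. This is a description across genes that share their libraries, with no test. LIG1, CDC45 and MCM10 were higher in both assays, RFC5 was higher in iCLIP and lower in RNA-seq, and PRIM2 was lower in both, of which LIG1 alone passed the iCLIP test.

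**Figure D3:**
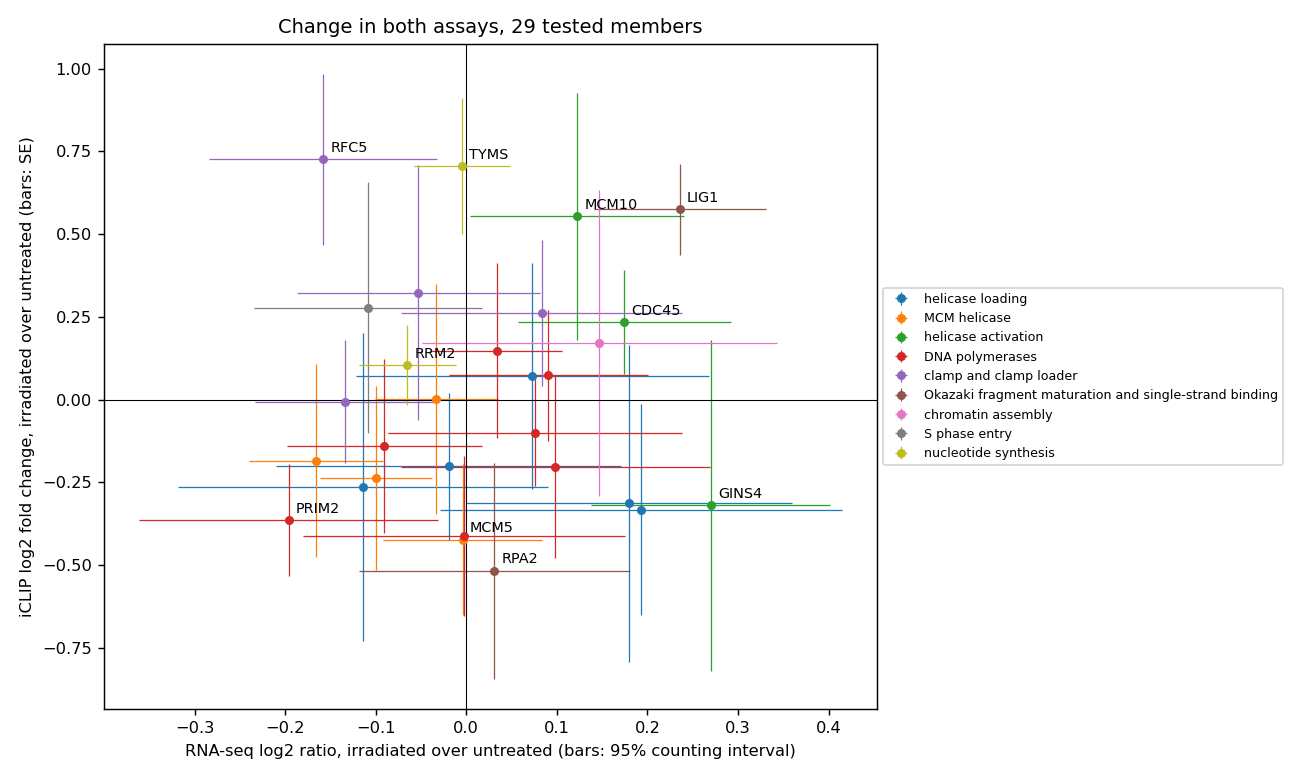
iCLIP log2 fold change (bars: SE) against RNA-seq log2 ratio (bars: 95% counting interval), irradiated over untreated, for the 29 tested members coloured by role. Most lie within 0.5 of 0 on the iCLIP axis, with RFC5, TYMS, LIG1 and MCM10 above and RPA2 just below, and they form no diagonal.

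Levels of different members can be compared per length only. Per kb of deposited gene length, RRM2 led in iCLIP with a mean of 18.5 CPM per kb in irradiated and 17.98 in untreated cells. In the order of untreated cells LIG1 followed with 10.2 in irradiated and 7.16 in untreated cells, then MCM7 with 4.74 and 5.93, TYMS with 7.82 and 5.05, and CDC45 with 5.66 and 5.05 CPM per kb. In irradiated cells TYMS ranked 3 and MCM7 ranked 6. RPA3 was last with 0.0822 and 0.0611 CPM per kb. In RNA-seq the order per kb in untreated cells was led by FEN1 (40.3 CPM per kb in irradiated and 41.5 in untreated cells), MCM7 (34.6 and 36.7) and TYMS (27.8 and 27.6). RRM2, with 4.66 and 4.83 CPM per kb, ranked 15 of 50 there. MCM7 and TYMS were thus near the top of both orders. The place of RRM2 in the RNA-seq order rests on its deposited length of 91028 bases. The deposited length covers introns as well as exons, so the RNA-seq order per kb places long genes low.

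The iCLIP level of a gene was also set against its RNA-seq level, as log2 of the mean iCLIP CPM over the RNA-seq CPM, for listed genes with at least 50 RNA-seq counts. The 36 listed members had a median of -1.14 in irradiated cells, against -0.24 for all 11412 such genes, and of -0.86 in untreated cells, against -0.19 for 11385. This gap depended on the count minimum: it was -0.89 in irradiated and -0.67 in untreated cells here, -0.57 and -0.36 with at least 200 RNA-seq counts, and -2.37 and -1.99 with at least 1. The members spread widely around this. POLA1 (2.17 in irradiated and 2.44 in untreated cells), PRIM2 (1.91 and 2.16) and RRM2 (1.99 and 1.90) were highest. PCNA (-4.82 and -6.05), FEN1 (-6.28 and -5.83) and RPA3 (-3.45 and -3.75) were lowest. In untreated cells POLA1 stood at percentile 89.3 of all such genes and PCNA at 0.984. PCNA and FEN1 thus had at least 2271 RNA-seq counts in each library and at most 8 counts in any TIRR library.

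Gene length moved with this value. Across the 36 members in untreated cells it correlated with log2 length at a Pearson r of 0.74 (Spearman rho 0.71), and across all 11385 genes at 0.64 (0.64), descriptions across genes of the same libraries. POLA1 and PRIM2 are 302984 and 328128 bases long in the iCLIP tables, and FEN1 2198. Genes were split by length into 5 classes of equal size. In untreated cells the member median was below the median of all genes in the shortest class (-2.61 against -2.32, 3 members), the second (-1.90 against -1.02, 13 members), the third (-0.84 against -0.32, 7 members) and the longest (1.43 against 1.87, 4 members), and above it in the fourth class (0.89 against 0.50, 9 members). In irradiated cells it was below in every class. RPA3 had a low value at a length of 82090 bases and RRM2 a high one at 91028, so members of like length differed.

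**Figure D4:**
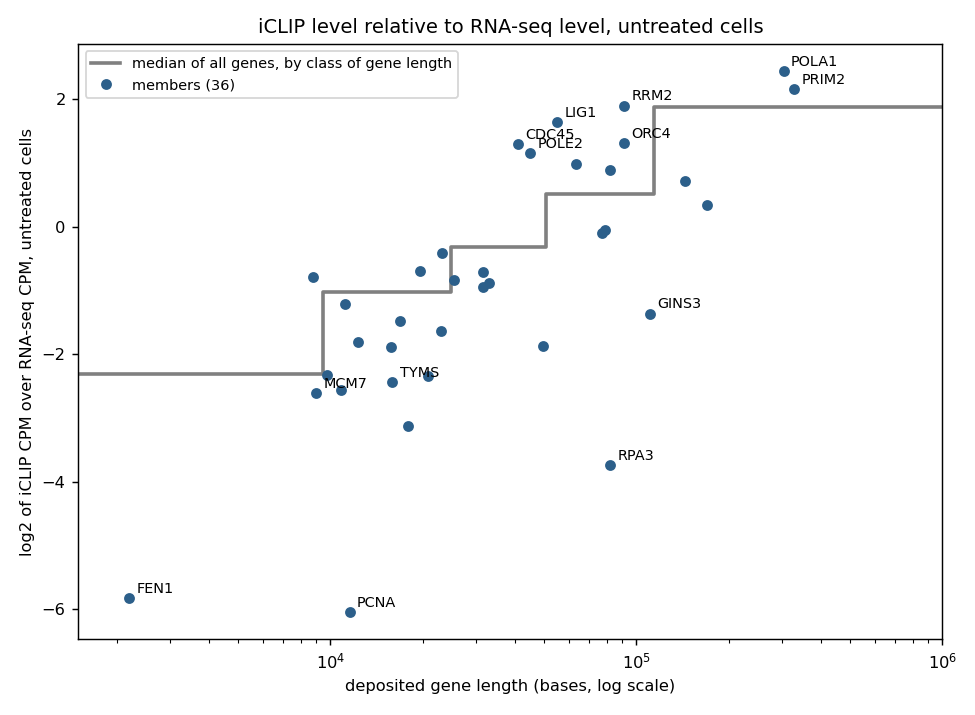
Log2 of mean iCLIP CPM over RNA-seq CPM in untreated cells against deposited gene length (log axis) for the 36 listed members (points), with the median of all genes by class of gene length as a grey step line. The members rise with length as all genes do, with RRM2 above the line and PCNA, FEN1 and RPA3 far below it.

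A further list of 46 genes held licensing kinases, fork protection, histone supply and E2F family genes, of which 35 were listed in iCLIP and 26 tested. In iCLIP 1 of the 26 was called higher and none lower, against 2.43% and 1.07% of all genes. That gene was RRM2B, the p53-induced small subunit of ribonucleotide reductase, with 145 and 152 CPM in irradiated libraries, against 33.2 and 22.5 CPM in untreated libraries, a log2 change of 2.48 ± 0.24 (SE, edgeR adjusted p = 4.67e-06). Its RNA-seq counts were 4332 in irradiated and 1526 in untreated cells, a ratio of 2.81 (95% counting interval 2.65 to 2.98). The ribonucleotide reductase subunits thus differed: RRM2B was higher in both assays, where RRM2 was not called in iCLIP and had an RNA-seq ratio of 0.956. Among 45 genes with 100 RNA-seq counts, 3 were at least 25% higher and 5 at least 20% lower, against 9.44% and 11.0% of all genes, shares near those of the list. The 3 higher ones were RRM2B, E2F7 (1.63, 1.48 to 1.79) and POLE4 (1.47, 1.09 to 1.99). The 5 lower ones were CCNA2 (0.544, 0.509 to 0.582), which encodes cyclin A, DBF4 (0.577, 0.510 to 0.653), the activator of the CDC7 kinase, E2F8 (0.695, 0.570 to 0.845), TICRR (0.764, 0.687 to 0.850) and the histone chaperone gene ASF1A (0.7997, 0.690 to 0.926). E2F7 and E2F8 are atypical repressor members of the E2F family. Of the E2F genes, E2F7 was therefore higher, E2F1, E2F2 and E2F8 lower, and E2F3 had a ratio of 1.12 (0.966 to 1.29).

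Many genes of the later cell cycle were lower and many of the p53 response higher in irradiated cells. Of 22 G2 and mitosis genes, 20 were at least 20% lower in RNA-seq and 11 of them at least 2-fold, with a median log2 ratio of -1.003, against -0.01 for the 49 replication genes with 100 counts. Among all 12977 genes with 100 counts, 11.0% were at least 20% lower and 81 genes at least 2-fold lower. CDC20, which activates the anaphase-promoting complex, had 1452 counts in irradiated against 3666 in untreated cells. In iCLIP 12 of the 22 were tested and all 12 had negative log2 fold changes, against 4593 of all 9230 genes. AURKA, TPX2 and ASPM, which act in the mitotic spindle, were called lower, where 1.07% of all genes were. The 17 genes of the G2 and mitosis list that were listed in iCLIP summed to 402 and 364 CPM in irradiated libraries, against 716 and 743 CPM in untreated libraries. The ratio of means was 0.525. Of 10 p53 target genes, among them CDKN1A, MDM2, FAS, BBC3 and FDXR, 9 were at least 2-fold higher in RNA-seq, as were 112 of all 12977 genes. All 7 tested had positive iCLIP log2 fold changes and 6 were called higher, against 2.43% of all genes. Of the counts of the 8 p53 genes listed in iCLIP, FDXR held 598 of 1090 and 1101 of 2022 in irradiated libraries, against 150 of 358 and 141 of 346 in untreated ones. CDKN1A, the p21 inhibitor of cyclin-dependent kinases, had 247 and 260.2 iCLIP CPM in irradiated libraries, against 26.9 and 42.5 CPM in untreated libraries, a log2 change of 2.93 ± 0.22 (SE, edgeR adjusted p = 9.60e-08). The difference between the lists was not tested, and the lists were chosen with earlier results of these data known.

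**Figure D5:**
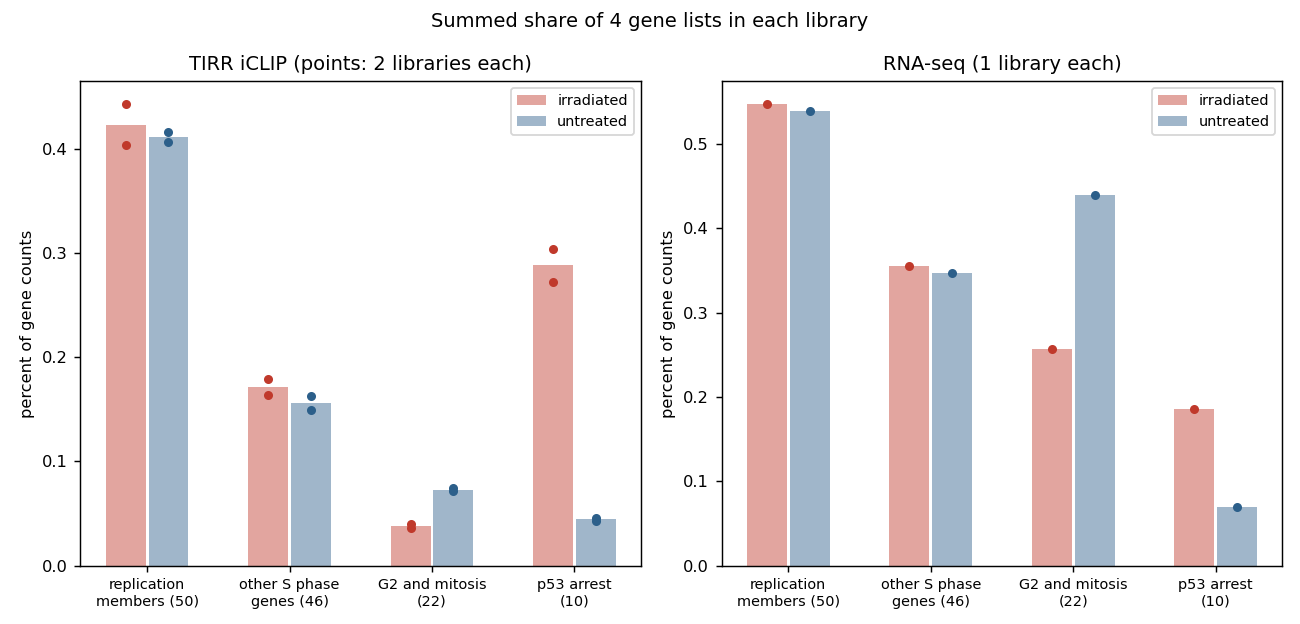
Summed share of gene counts of the 50 replication members, the 46 other S phase genes, the 22 G2 and mitosis genes and the 10 p53 target genes (labelled p53 arrest). The iCLIP sums hold only the genes listed there, 36, 35, 17 and 8 of these, while the RNA-seq sums hold all of them. The left panel shows iCLIP, where bars are means and points the 2 libraries of a group, and the right panel RNA-seq with 1 library each. The replication members took 0.443% and 0.403% of irradiated and 0.406% and 0.416% of untreated iCLIP libraries, while the G2 and mitosis bars are lower and the p53 arrest bars higher in irradiated cells in both assays.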

How the data were processed

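TIRR iCLIP (2 irradiated and 2 untreated libraries) and RNA-seq (1 irradiated and 1 untreated library) of U2OS cells were compared. The authors deposited, per library, unscaled whole-number cDNA counts for each gene, and the percent of all cDNA that each gene takes, per the file headers and the values. The percent column was used only to check the counts. Each table also gives a gene length in bases. The build is hg38 and kallisto 0.44.0 is named for RNA-seq, per the submitters' processing notes; aligner, duplicate removal, annotation and strand are not stated in those notes or the labels.

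Intergenic counts (30.6% to 31.3% of iCLIP and 44.4% of RNA-seq counts) were left out. iCLIP counts were tested with the edgeR 4.0.16 quasi-likelihood F test (R 4.3.3, TMM, filterByExpr, Benjamini-Hochberg at 0.05, two-sided) over 9230 genes. CPM is per 1000000 gene counts, unscaled, and the SE is the log2 fold change over the root of F. RNA-seq ratios are TMM-scaled with exact conditional 95% intervals, which cover counting error only. The rules for RNA-seq needed 100 counts in the library with more. The iCLIP over RNA-seq value used a prior of 0.5 counts. Motifs were searched in RefSeq promoters. Python 3.11.15, numpy 2.4.6, pandas 2.3.3, scipy 1.17.1 and matplotlib 3.10.9 were used, and the edgeR and interval steps were tested on simulated data.

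The members and gene lists were chosen with earlier results of these data known. Of the 50 members, 28 were named by rule: the 2 with most iCLIP counts in each role, those called, the 5 highest and 5 lowest RNA-seq ratios, the 5 largest iCLIP changes, and the 3 highest and 3 lowest iCLIP over RNA-seq values. Other members are named where a count of few genes needed it, after their values were seen. Alternatives were DESeq2 1.42.0, other scalings, filters and priors, a replicate block, and leaving out each library.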

Additional observations from a re-analysis of the deposited data

How the results depend on the processing

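With 4 iCLIP libraries the number of called genes depended on the method: 323 were called as reported, of which 224 were higher (69.3%) and 99 lower. A replicate block gave 190 with 40 lower, and DESeq2 gave 121, of which 106 were higher and 15 lower. Leaving out 1 library gave 186 to 421 called genes, 145 to 289 higher and 41 to 132 lower. The fewest came without untreated replicate 1 (186 called, 145 higher, 41 lower), and without untreated replicate 2 there were 56 lower. Scaling by library totals called 316, of which 184 were higher (58.2%). The number of members called was 1 (LIG1) as reported and with other scalings and filters, 0 with the block and 0 in DESeq2, and 0 to 2 with a library left out. A fit that leaves 1 library in a group assumes that it varies like the others. Of the alternatives to the values of single members, 164 kept their side of the threshold, 4 lost it (all LIG1) and 2 gained it (TYMS, RFC5). The median log2 fold change of the tested members was -0.01 as reported, -0.13 with no filter on low counts, and -0.17 to 0.039 with a library left out. The labels do not say that a replicate number pairs libraries. Same-numbered libraries deviated from their group means with a correlation of -0.09 over 9230 genes, and with the replicate block LIG1 changed by 0.58 (log2, edgeR adjusted p = 0.0906).

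With at least 500 RNA-seq counts, 98 genes met the 2-fold rule and 1051 the smaller rule (25% higher or 20% lower), against 193 and 2646 as reported, because fewer genes were eligible (6471). The log2 ratio of the members' summed RNA-seq share was 0.02, and 0.0077 with TMM scaling. The difference of the member median of iCLIP over RNA-seq from that of all genes was -0.89 in irradiated cells as reported, -1.06 with a prior of 5 counts, -0.57 with at least 200 RNA-seq counts, -2.37 with at least 1, and -0.94 to -0.83 with a library left out. In untreated cells it was -0.67, -0.36 with at least 200 counts, -1.99 with at least 1, and -0.81 to -0.51 with a library left out. The number of genes compared changes with the count minimum. Depth limits PCNA, FEN1, RPA3, CCNE2, PRIM1, GMNN and GINS3 in iCLIP, which were too sparse to test.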

Other observations

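The deposited gene length departs from the RefSeq span for some members, and 40 of the 50 are within 10% of it. POLA2 is given 1574 bases where RefSeq spans 44024, and it was the member with the fewest RNA-seq counts. GINS3 is given 111068 bases where RefSeq spans 13677, and POLD3 170308 where RefSeq spans 76760. FEN1 is given 2198 bases in the iCLIP tables and 4328 in the RNA-seq tables. Levels per kb of these genes rest on those lengths, as do the length classes and the correlations with length. In RefSeq 27 of the 50 members overlap another annotated gene, 19 of them listed in iCLIP and 8 not.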
